A study of Mus musculus with 3 samples.

Results

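The mouse mitochondrial chromosome carries 37 annotated genes, whose symbols all start with mt-. They are 13 messenger RNAs, 2 ribosomal RNAs and 22 transfer RNAs. All 37 were taken by chromosome, with no measured value involved, out of 54532 genes listed in each of 3 deposited RNA-seq libraries. Reads were listed for 16 of the 37 genes in the PBS library, 15 in the ZOL library and 16 in the ZOL+Ang2 library.

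The study modelled metastasis to the dura mater, the tough membrane that lines the skull, in mice that received 4T1-DM tumour cells (4T1 is a mouse mammary carcinoma line). All 3 groups carried the tumour cells, and the treatments were PBS, ZOL and ZOL+Ang2, abbreviations left unexplained in the labels. The dorsal dura was dissociated 12 days after the tumour cells were given. The labels call the cells CD45-CD31+PDPN+, that is, lacking the leukocyte antigen CD45 and carrying the endothelial antigen CD31 together with podoplanin, a pairing that is used to select lymphatic endothelium. The sources used here do not give strain, age, dose or schedule. Cells of 6 mice were pooled per group and each group is 1 library, so there is no replicate, no test was run, and each value describes these libraries and not the spread between mice.

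Mitochondrial DNA encodes the core membrane subunits of respiratory complexes I, III, IV and V, together with the ribosomal and transfer RNAs needed to translate them inside the organelle. The other subunits of those complexes, all of complex II, and the machinery that copies, transcribes and processes mitochondrial RNA are encoded in the nucleus. Both strands of the circle are transcribed as long precursors that are cut mostly at the transfer RNAs lying between the other genes. Most endothelial cells draw much of their ATP from glycolysis, and mitochondrial transcripts are abundant in most tissues.

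Within a library, genes are compared below by RPKM, the deposited reads per kilobase of gene. Between libraries they are compared by CPM, reads scaled to a common library size by TMM, a method that assumes that most genes do not differ. RPKM is compared between libraries only where it is named as an alternative, because the reads recovered from the files came to 1.496, 0.701 and 0.785 times the totals that the RPKM of PBS, ZOL and ZOL+Ang2 imply. Intervals are exact 95% binomial intervals. They cover counting error only, since amplified reads without molecular identifiers are not independent molecules.

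The recovered reads numbered 1675532 in PBS, 16586760 with ZOL and 9204901 with ZOL+Ang2. The PBS library stood apart, with 22.1% of its reads on 13 satellite-type gene models, where ZOL and ZOL+Ang2 had 1.07% and 3.51%. Chemoreceptor genes, which dural cells are not known to use, took 2.87% of PBS reads against 0.0508% and 0.150%. The 10 pan-endothelial markers summed to 1583, 2753 and 1035 CPM, with none at 0 and with Kdr at 210 and Emcn at 276 CPM in PBS. Among them Pecam1 (CD31), which defines the gate, was the lowest in PBS, with 2 reads or 1.08 CPM against 475 and 177 CPM. Pdpn stood at 18.8, 67.5 and 171 CPM, and Ptprc (CD45) at 156, 25.1 and 76.1 CPM. The 7 lymphatic markers, Pdpn among them, summed to 275, 170 and 218 CPM. Lyve1 was at 0 in all 3 libraries, Prox1 had 2 reads in PBS and 0 in the others, and Ccl21a had 0, 11.1 and 3.88 CPM. Flt4 had 0.538, 70.9 and 23.8 CPM, Mmrn1 155, 11.5 and 12.0 CPM and Reln 99.6, 8.60 and 7.87 CPM, so the markers did not follow each other across the libraries. The part of these differences in the mitochondrial values below was not tested.

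Nuclear DNA holds copies of mitochondrial sequence, and reads of a recent copy cannot be told from reads of the mitochondrial gene. The sequences shown here are those on which this point turns, 5′ to 3′ from GENCODE M21 transcripts on GRCm38 (mm10), in lower case with differing bases in capitals. Positions are counted from 1 at the mitochondrial gene's first base, and the mitochondrial base is given first. The first pair is mt-Co2, subunit 2 of cytochrome c oxidase, at chrM:7313-7372 on the + strand and its copy Gm28661 at chr1:24615206-24615265 on the - strand, which share all 60 bases shown.
mt-Co2: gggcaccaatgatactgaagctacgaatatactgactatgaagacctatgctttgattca
Gm28661: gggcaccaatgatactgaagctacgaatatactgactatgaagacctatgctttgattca
The start of mt-Nd3, subunit 3 of complex I (chrM:9459-9518, + strand), and that of its copy Gm28438 (chr1:24613060-24613119, - strand) differ by T3C.
mt-Nd3: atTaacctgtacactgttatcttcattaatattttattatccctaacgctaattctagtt
Gm28438: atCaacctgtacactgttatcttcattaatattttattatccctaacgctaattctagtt
Near the start of the copied part of mt-Co1, subunit 1 of cytochrome c oxidase (chrM:6390-6449, + strand), the copy Gm29216 (chr1:24616129-24616188, - strand) differs by A1066T.
mt-Co1: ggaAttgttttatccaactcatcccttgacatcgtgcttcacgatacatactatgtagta
Gm29216: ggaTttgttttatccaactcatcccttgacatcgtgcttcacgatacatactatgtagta
For contrast, an older copy of mt-Cytb, the cytochrome b gene (chrM:14445-14504, + strand), is Gm11410 (chr4:80004289-80004348, + strand). It differs by C303A, T304A, T309C, A318C, T327C, C336A and G360A within the same length of sequence, so reads can be assigned.
mt-Cytb: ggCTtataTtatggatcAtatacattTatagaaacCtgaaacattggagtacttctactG
Gm11410: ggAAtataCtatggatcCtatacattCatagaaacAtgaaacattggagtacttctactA

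The recent copies form 1 block on chromosome 1. Among 141767 annotated transcripts, 7 copies with at least 99% identity over at least 200 bases were found, and all 7 lie on the - strand of chr1:24611535-24616197. They follow chrM:6381-11042 in the same order and spacing to within 1 base. They run from the end of mt-Co1 through mt-Co2, mt-Atp6, mt-Co3, mt-Nd3 and mt-Nd4l into mt-Nd4. The annotated copy of mt-Nd4 ends at base 876 of that gene and is identical up to there. The chromosome 1 bases beyond it were not read. The bases around that end (chrM:11013-11072, + strand) are shown with the part inside the copy in capitals.
mt-Nd4: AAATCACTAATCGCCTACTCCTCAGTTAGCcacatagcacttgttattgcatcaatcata
Gm28439 and Gm10222, the copies of mt-Nd4 and mt-Nd4l, were added to the 5 copies of the list after the values had been seen. The gene mt-Atp8 lies inside the same stretch, at the place of chr1:24614609-24614812, where the bases outside the mt-Atp6 copy carry no annotated gene model. It overlaps mt-Atp6 by the 43 bases chrM:7927-7969 (+ strand), shown with the start codon of mt-Atp6 in capitals.
mt-Atp8 and mt-Atp6: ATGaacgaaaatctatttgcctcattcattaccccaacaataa

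The 2 ribosomal RNAs were far apart in level. The large-subunit RNA mt-Rnr2 (chrM:1094-2675) had the highest RPKM of the 37 genes in each library: 40738 in PBS, 3760 with ZOL and 3574 with ZOL+Ang2. The small-subunit RNA mt-Rnr1 (chrM:70-1024) had 1724, 191 and 392.5 RPKM. Both RNAs are used in equal number in a ribosome, yet the ratio of mt-Rnr1 to mt-Rnr2 by RPKM was 0.0423 in PBS, 0.0508 with ZOL and 0.110 with ZOL+Ang2. It was highest in ZOL+Ang2.

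Complex I, which takes electrons from NADH, has 7 subunits encoded here. Gene mt-Nd1 (chrM:2751-3707) was the highest of them in each library, at 9750, 752 and 658 RPKM in PBS, ZOL and ZOL+Ang2. Gene mt-Nd2 (chrM:3914-4951) had 3208, 157 and 176 RPKM. Then came mt-Nd4 (chrM:10167-11544) with 7678, 190 and 170 RPKM and mt-Nd5 (chrM:11742-13565) with 6673, 197 and 156. Low values were seen for the short genes mt-Nd3 (43.6, 7.52 and 9.07 RPKM) and mt-Nd4l (69.1, 3.13 and 1.15 RPKM). These are the values of few reads: 17, 62 and 37 for mt-Nd3 and 23, 22 and 4 for mt-Nd4l.

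The gene mt-Nd6 (chrM:13552-14070) is the messenger RNA on the - strand, opposite to the other 12. It had 602, 56.4 and 45.8 RPKM in PBS, ZOL and ZOL+Ang2. Its neighbour mt-Nd5 stood 11.1 times higher in PBS but 3.50 and 3.40 times higher in ZOL and ZOL+Ang2, so the PBS library was the one that differed. The sources used here do not say whether the counting used strand, and without strand its reads cannot be told from transcripts of the opposite strand that cross it.

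Complex III has 1 subunit encoded here, cytochrome b. Its gene mt-Cytb had 37127 RPKM in PBS, 1158 with ZOL and 773 with ZOL+Ang2, the highest of the 13 messenger RNAs in each library. In PBS it nearly matched the large ribosomal RNA, since mt-Rnr2 was 1.10 times the level of mt-Cytb. In ZOL and ZOL+Ang2 that ratio was 3.25 and 4.62.

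Complex IV, cytochrome c oxidase, has 3 catalytic core subunits encoded here. Gene mt-Co1 (chrM:5328-6872) was the highest of them, with 22318 RPKM in the PBS library, 1007 in ZOL and 631 in ZOL+Ang2. It came next after mt-Cytb among the messenger RNAs in PBS and ZOL, and in ZOL+Ang2 mt-Nd1 also lay above it. The other two were far lower, with 998, 45.9 and 37.6 RPKM for mt-Co2 (chrM:7013-7696) and 1309, 59.7 and 51.7 for mt-Co3 (chrM:8607-9390). The 3 genes are therefore not level with each other by RPKM in any library, although their products stand in equal number in the complex. Both mt-Co2 and mt-Co3 have a nuclear copy over nearly their whole length, and the part of that in their RPKM was not tested.

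Complex V, the ATP synthase, has 2 subunits of its proton channel encoded here. Gene mt-Atp6 (chrM:7927-8607) had 332, 24.3 and 26.7 RPKM. Gene mt-Atp8 (chrM:7766-7969) had 35.0, 6.21 and 8.36 RPKM from 8, 30 and 20 reads. It was the lowest messenger RNA in PBS, and mt-Nd4l was the lowest in ZOL and ZOL+Ang2. The sources used here do not say how reads over both genes were counted.

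**Figure D1:**
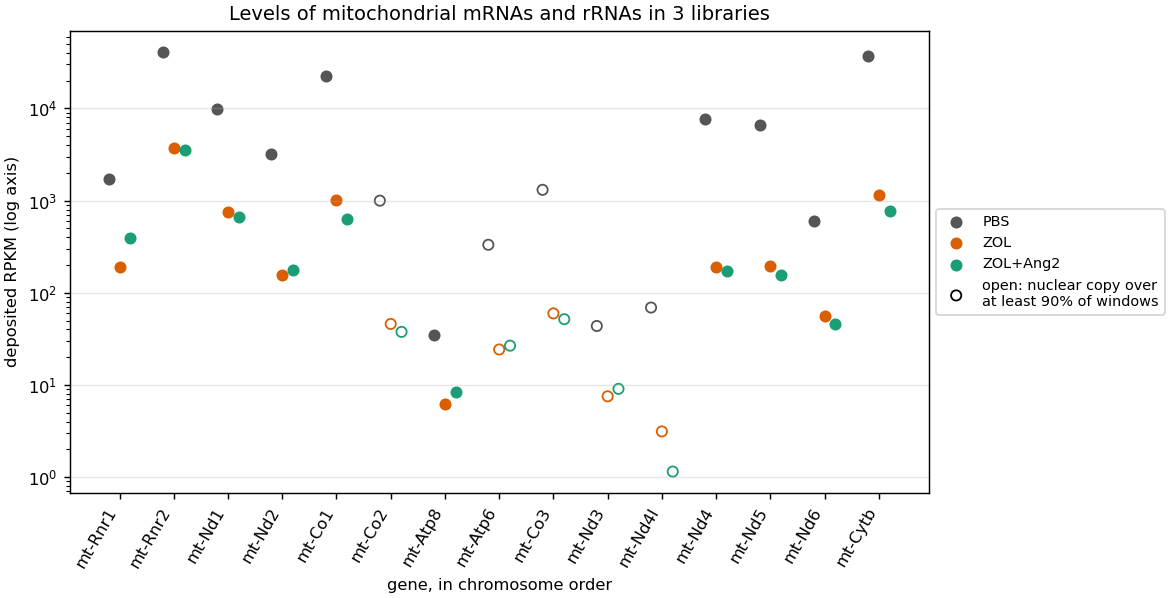
Deposited RPKM (log axis) of the 13 mitochondrial messenger RNAs and 2 ribosomal RNAs in chromosome order, 1 point per library. Levels are to be compared between genes of the same colour; open points mark the 5 genes with a nuclear copy over at least 90% of their 100-base windows, which lie low in each library together with mt-Atp8.

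Transfer RNAs were close to absent from the counts. They are 59 to 75 bases long (median 68), and 21 of 22 had 0 reads in all 3 libraries. The exception was mt-Tp, the proline transfer RNA (chrM:15356-15422, - strand), shown whole because it is the transfer RNA with reads.
mt-Tp: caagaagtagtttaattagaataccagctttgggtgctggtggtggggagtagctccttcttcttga
It had 1 read in PBS, 0 with ZOL and 3 with ZOL+Ang2, and no fold is given between such values. A count of 0 allows up to 3 reads, which at the median length is 39.1 RPKM in PBS, 1.85 with ZOL and 3.73 with ZOL+Ang2. The limit in PBS is thus no lower than the RPKM of mt-Atp8 there. In ZOL all 22 were at 0, which allows 0.191 CPM each.

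The ranking of genes was much alike in the 3 libraries. Across the 15 messenger and ribosomal RNAs, Spearman's rho of RPKM was 0.968 between PBS and ZOL, 0.971 between ZOL and ZOL+Ang2 and 0.95 between PBS and ZOL+Ang2. Genes are not independent replicates, and those points share gene length, copies and library chemistry. The spread among the 13 messenger RNAs was wide, with a coefficient of variation of RPKM of 1.59 in PBS, 1.45 with ZOL and 1.33 with ZOL+Ang2. The highest messenger RNA stood 1061, 370 and 673 times above the lowest. The 3 highest in each library, mt-Cytb, mt-Co1 and mt-Nd1, held 76.8%, 79.6% and 75.2% of the summed RPKM of the 13.

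Genes with a recent nuclear copy over nearly their whole length lay low in each library. An exact copy in another annotated transcript covered 99.5% of the 100-base windows of mt-Co2 and of mt-Atp6. It covered 99.9% of those of mt-Co3, 97.6% of mt-Nd3 and 98.5% of mt-Nd4l. These 5 genes had a median RPKM of 332 in PBS, 24.3 with ZOL and 26.7 with ZOL+Ang2. For mt-Co1, mt-Nd4 and mt-Nd2 the share of windows was 30.8%, 60.8% and 3.19%, and their median RPKM was 7678, 190 and 176. The 7 genes without such a window had medians of 6673, 197 and 392.5. Among these 7, mt-Atp8 and mt-Nd6 were the lowest, and mt-Atp8 lies inside the chromosome 1 block. The sources used here do not say how reads with several positions were handled, and the part of that in these levels was not tested.

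Reads were listed for both members of each pair. For mt-Co2 and Gm28661 they were split evenly: the copy held 49.2% (46.7 to 51.8) of the pair's reads in PBS, 49.1% (46.6 to 51.7) with ZOL and 53.9% (49.99 to 57.8) with ZOL+Ang2. For mt-Co3 and Gm28437 the copy held 51.5%, 53.9% and 54.8%. For mt-Atp6 and Gm10925 it held 68.4%, 67.9% and 63.6%, more than the mitochondrial gene. Such splits belong to genes that are identical over nearly their whole length.

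Shares above an even split were also listed for the shortest genes. The copy Gm28438 held 64.6%, 62.9% and 76.6% of the reads of its pair with mt-Nd3. For mt-Nd4l and Gm10222 the copy held 59.6%, 56.9% and 86.2%, the last from 29 reads (68.3 to 96.1). Where the annotated copy is partial, the split was different. Gm29216, over 31.3% of mt-Co1, held 2.79%, 2.31% and 3.14% of the reads of that pair. Gm28439, over 63.6% of mt-Nd4, held 0.670%, 1.27% and 2.34%. The share was thus not larger for the gene with more of it copied, and the reason was not tested. The older copies took few reads. The copy of the whole of mt-Co1, Gm13340 on chromosome 2 with 97.6% identity, had 30, 26 and 12 reads, and Gm11410 had 0 in each library.

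**Figure D2:**
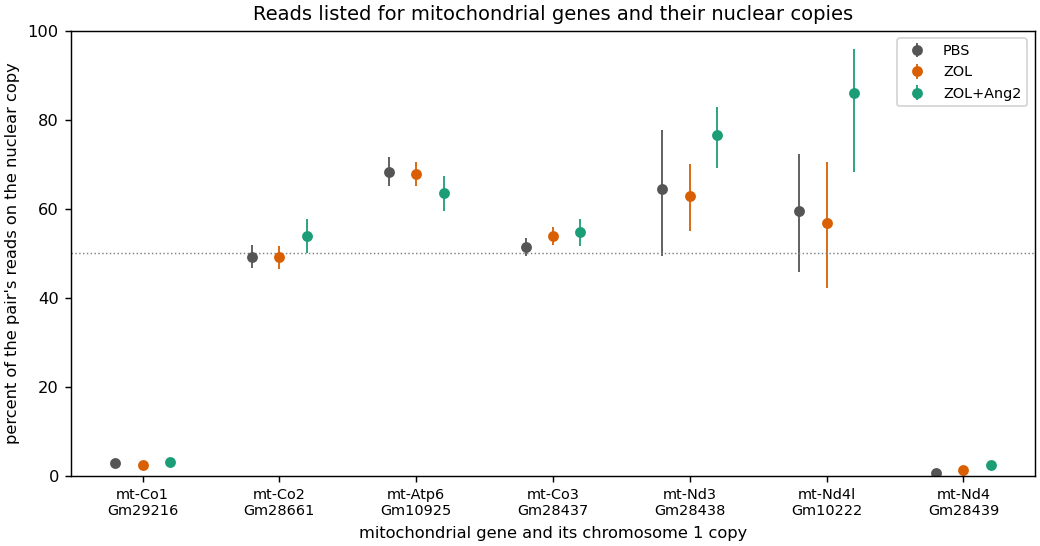
Percent of the reads of each mitochondrial gene and its chromosome 1 copy that are listed for the copy, 1 point per library with its exact 95% binomial interval; the dotted line marks an even split. The genes copied over nearly their whole length lie between 49.1% and 86.2%, and mt-Co1 and mt-Nd4, whose annotated copies are partial, at or below 3.14%.

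The 7 copies together had 3762 reads in PBS, 3924 with ZOL and 1882 with ZOL+Ang2, or 0.225%, 0.0237% and 0.0204% of the library. In PBS, mt-Co2 and Gm28661 together came to 1507 reads, against 39737 for mt-Co1 with Gm29216. If reads with several positions were listed at each of them, such sums count the same reads more than once. This limit holds for every value below that adds the copies. Adding each copy to its gene raised the share of mt-Co2 among the reads of the 13 messenger RNAs from 0.596% to 1.14% in PBS, and that of mt-Atp6 from 0.197% to 0.606%. The share of mt-Co3 there went from 0.895% to 1.79%. For mt-Nd4l it went from 0.0103% to 0.0714% in ZOL+Ang2, and for mt-Nd3 from 0.0955% to 0.389%. In ZOL mt-Nd4l with its copy (51 reads over 297 bases) then lay above mt-Atp8 (30 reads over 204 bases), so which gene was lowest there depends on the copies.

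The make-up of the mitochondrial reads shifted from messenger to ribosomal RNA between PBS and the other libraries. All 37 genes took 12.1% (12.0 to 12.1) of the reads in PBS, 1.52% (1.51 to 1.53) with ZOL and 1.19% (1.18 to 1.20) with ZOL+Ang2. Of those reads, messenger RNA made up 63.4% (63.2 to 63.6) in PBS, 42.4% (42.2 to 42.6) with ZOL and 35.4% (35.1 to 35.7) with ZOL+Ang2. Ribosomal RNA made up the rest, 36.6%, 57.6% and 64.6%. These shares within the mitochondrial reads need no scaling between libraries.

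Single genes set this shift. The share of mt-Rnr2 was 35.7%, 55.9% and 60.6% of the mitochondrial reads, and that of mt-Rnr1 was 0.911%, 1.71% and 4.02%. Cytochrome b went the other way, with 23.5% in PBS, 12.4% with ZOL and 9.48% with ZOL+Ang2. Complex IV genes held 20.02%, 15.3% and 11.2%. Complex I genes held 19.8%, 14.4% and 14.6%, so here ZOL and ZOL+Ang2 were alike. Complex V genes held 0.129%, 0.167% and 0.213%.

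**Figure D3:**
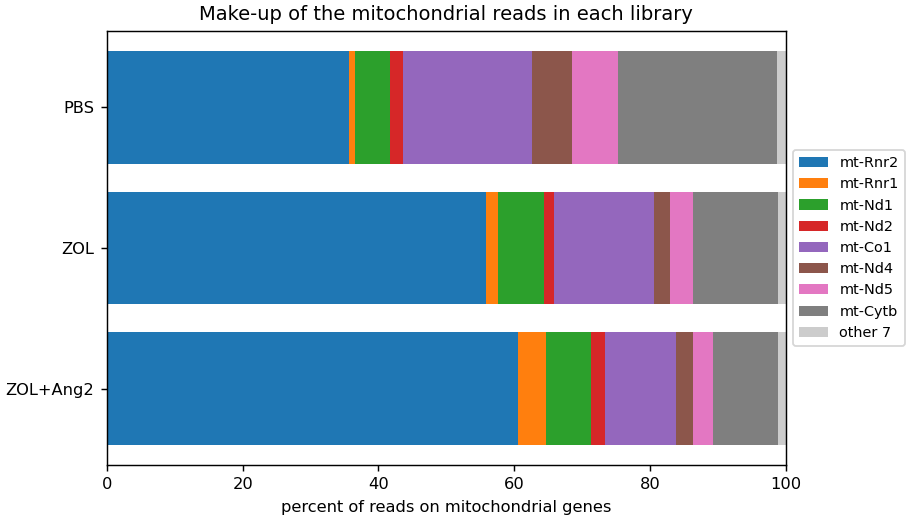
Percent of the reads on mitochondrial genes taken by each gene in the PBS, ZOL and ZOL+Ang2 libraries; the last colour sums the 7 messenger RNAs with fewest reads. The part of mt-Rnr2 is 35.7% in PBS, 55.9% with ZOL and 60.6% with ZOL+Ang2, and that of mt-Cytb 23.5%, 12.4% and 9.48%.

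Among the 13 messenger RNAs alone, mt-Nd1 gained share while mt-Cytb and mt-Nd4 lost it from PBS to ZOL. The share of mt-Nd1 was 8.14%, 15.9% and 19.1% in PBS, ZOL and ZOL+Ang2. That of mt-Cytb was 37.04%, 29.4% and 26.8%, and that of mt-Nd4 was 9.23%, 5.80% and 7.10%. The ratio of mt-Cytb to mt-Nd1 by RPKM was 3.81, 1.54 and 1.17. By contrast, the ratio of mt-Rnr2 to mt-Nd1, genes that lie next to each other with 1 transfer RNA between them, was 4.18, 5.002 and 5.43, much closer between libraries.

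For ZOL against PBS, 12 of the 37 genes could be compared, those averaging 10 CPM or more. All 12 also had at least 10 CPM in each library, and the 25 below that level were mt-Atp8, mt-Nd3, mt-Nd4l and the 22 transfer RNAs. At least 2-fold lower in ZOL were 12 of 12, where of all 10942 genes compared 29.4% were lower and 49.2% higher by that much. The median log2 fold of the 12 was -2.998, against 0.94 for all genes. Relative to the median of all genes it was -3.94, and over the alternatives that compare the same number of genes it lay between -4.45 and -3.67. With the 3 low messenger RNAs admitted it was -2.51 over 15 genes at a mean of at least 1 CPM, and -2.30 over 15 in the deposited RPKM. Each of the 12 was lower in ZOL under all of these. In bulk RNA, fewer cells of a type and less RNA per cell cannot be told apart.

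Genes differed in how far they stood below PBS, and messenger RNAs of the last part of the + strand were farthest. Gene mt-Nd4 had 6379 CPM in PBS and 395 in ZOL, 16.2-fold lower (15.7 to 16.7). Gene mt-Nd5 had 7338 and 542 CPM, 13.5-fold lower (13.2 to 13.9). Gene mt-Cytb had 25607 and 1998 CPM, 12.8-fold lower (12.6 to 12.998). These 3 intervals lie above those of the other 9 genes compared.

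In the middle stood the complex IV genes and mt-Nd2. Gene mt-Co1 had 20789 and 2346 CPM, 8.86-fold lower (8.74 to 8.99). The folds of mt-Co2, mt-Co3 and mt-Nd2 were 8.70 (7.85 to 9.64), 8.77 (8.07 to 9.53) and 8.15 (7.79 to 8.53). The intervals of the 3 complex IV genes overlap, although mt-Co2 and mt-Co3 have near-complete recent nuclear copies and mt-Co1 an annotated copy of a part. With the reads of the copies added, their folds were 8.91, 8.71 and 8.33.

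Least far below PBS were the ribosomal RNAs and some genes near them, with mt-Atp6 and mt-Nd6. The gene mt-Rnr1 had 993 CPM in PBS and 275 in ZOL, 3.61-fold lower (3.41 to 3.81). The gene mt-Rnr2 had 38855 and 8971 CPM, 4.33-fold lower (4.29 to 4.37), and mt-Nd1 had 5625 and 1085 CPM, 5.19-fold lower (5.06 to 5.31). The fold of mt-Atp6 was 5.47 (4.65 to 6.42) and that of mt-Nd6, on the other strand, 4.27 (3.74 to 4.86). Of the 3 low messenger RNAs not counted above, mt-Nd4l was 8.83-fold lower (4.71 to 16.6) and mt-Nd3 2.32-fold lower (1.27 to 4.01). The ratio of mt-Atp8 was 0.444 with an interval that holds 1 (0.199 to 1.12), so no direction was detectable at this depth.

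Among the genes compared, the folds largely followed the order of genes along the chromosome. Across the 11 compared genes of the + strand, Spearman's rho between start position and log2 ratio of ZOL to PBS was -0.873. Without the 2 ribosomal RNAs it was -0.767 over 9 genes. Over those 9 genes the log2 ratio went with gene length to a similar degree (rho -0.733), so position and length were not separated there. This pattern was noticed after the values were seen and is given as a description of 2 libraries. The genes are not independent, since they are cut from shared precursors, and mt-Atp6, whose fold was smaller than that of its neighbours, does not follow the order. Of the low messenger RNAs left out of that rho, mt-Nd3, which lies between mt-Co3 and mt-Nd4, does not follow it either. It was 2.32-fold lower (1.27 to 4.01), or 2.43-fold (1.72 to 3.37) with its copy added. The fold of mt-Nd4l was 8.83 (4.71 to 16.6), and mt-Atp8 had no detectable direction.

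For ZOL+Ang2 against ZOL the 12 genes were close. None passed 2-fold in either direction, where of all genes 24.8% were lower and 16.2% higher by that much. The median log2 fold was -0.36, against -0.02 for all genes. The ribosomal RNA mt-Rnr1 stood apart as the gene above ZOL, with 501 CPM against 275, 1.82-fold higher (1.75 to 1.90). With median-of-ratios scaling, and in the deposited RPKM, it passed 2-fold.

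Of the other 11 genes, mt-Co1 was the lowest relative to ZOL, with 1303 CPM against 2346, 1.80-fold lower (1.76 to 1.84). Next came mt-Cytb with 1183 against 1998 CPM, 1.69-fold lower (1.65 to 1.73), and mt-Nd5 with 380 against 542 CPM, 1.43-fold lower (1.37 to 1.49). The large ribosomal RNA was 1.19-fold lower (1.18 to 1.20), so the 2 ribosomal RNAs went opposite ways. The ratios of mt-Nd2 (0.990, 0.938 to 1.04) and mt-Atp6 (0.975, 0.821 to 1.16) had intervals that hold 1. With median-of-ratios scaling, after thinning to equal depth and in the deposited RPKM these ratios were above 1. With the reads of its copy Gm10925 added, mt-Atp6 was 1.16-fold lower (1.05 to 1.29), an interval that does not hold 1. That interval is too narrow if the same reads were listed for both. Position along the chromosome had a rho of -0.582 with the log2 ratio over 11 genes and -0.35 over the 9 messenger RNAs.

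For ZOL+Ang2 against PBS, which shares the PBS library with the first comparison, 11 of 12 genes were at least 2-fold lower, where of all genes 33.1% were lower and 44.2% higher by that much. The median log2 fold was -3.21, against 0.48 for all genes. The exception was mt-Rnr1, at 501 CPM against 993, which was 1.98-fold lower (1.87 to 2.09). That exception depends on the scaling: 12 of 12 passed 2-fold with library totals, nuclear totals, median-of-ratios factors, after thinning and relative to the median of all genes. Gene mt-Cytb was the farthest below PBS, 21.6-fold lower (21.2 to 22.1), followed by mt-Nd4 (20.3, 19.5 to 21.2) and mt-Nd5 (19.3, 18.6 to 20.1).

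**Figure D4:**
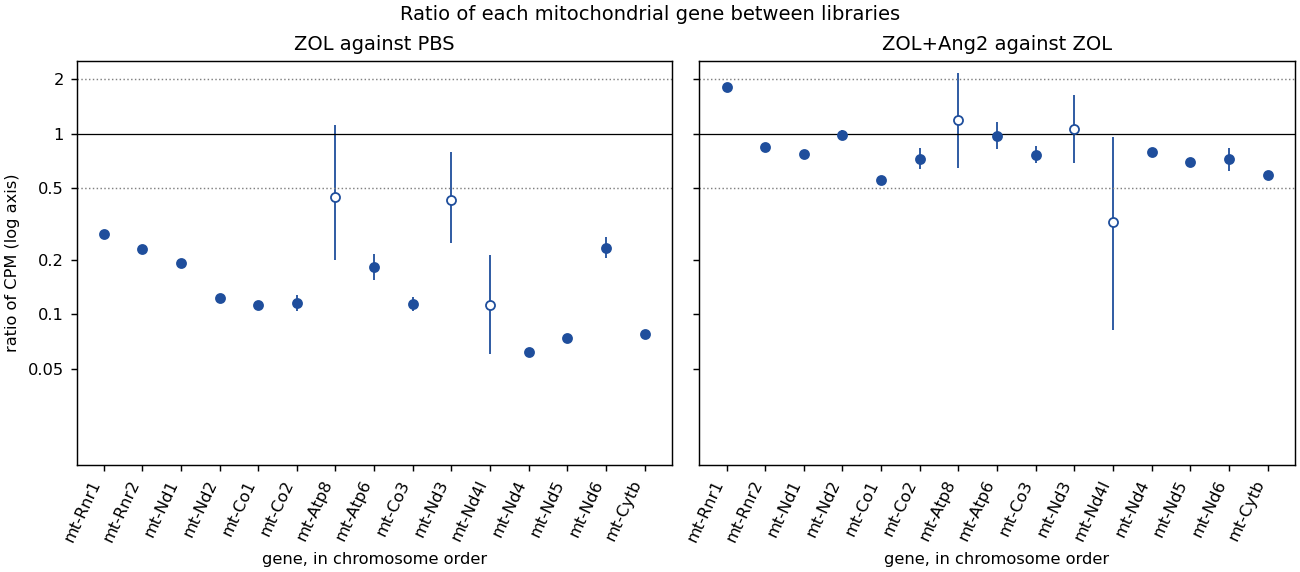
Ratio of CPM (log axis) of each mitochondrial messenger and ribosomal RNA in ZOL against PBS (left) and in ZOL+Ang2 against ZOL (right), in chromosome order. Bars are exact 95% binomial intervals, open points are genes with a mean under 10 CPM, and dotted lines mark 2-fold; on the left mt-Nd4 lies lowest (16.2-fold lower), and on the right mt-Rnr1 lies highest (1.82-fold higher).

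Marker sums of other cell types differed between the libraries. Epithelial and carcinoma markers (6 genes) summed to 542, 4689 and 4394 CPM for PBS, ZOL and ZOL+Ang2, with Krt19 and Cldn7 at 0 in PBS and Cldn7 at 0 in ZOL+Ang2. Krt8 (165, 2451 and 2057 CPM) and Krt18 (151, 1911 and 1885 CPM) held most of that sum in ZOL and ZOL+Ang2. Cdh1 went the other way, with 165, 84.8 and 81.3 CPM. Leukocyte and myeloid markers (10 genes) summed to 1514, 127 and 2214 CPM, with C1qb at 0 in PBS, C1qa, Csf1r and Cd79a at 0 in ZOL, and Cd79a and Cd3e at 0 in ZOL+Ang2. Of the erythroid markers, the globin gene Hba-a1 had 137, 2.04 and 12334 CPM and Hbb-bs had 25.8, 1.85 and 10201 CPM, with Alas2 at 0 in ZOL and Slc4a1 at 0 in PBS and ZOL. Fibroblast markers (6 genes) came to 343, 454 and 10780 CPM, with Lum and Pdgfra at 0 in PBS. From PBS to ZOL these markers went both ways, Col1a1 from 189 to 53.5 CPM and Dcn from 6.46 to 179 CPM. Striated muscle markers (8 genes) summed to 146, 144 and 343 CPM, of which Tnnt2 alone had 85.0, 131 and 330.6 CPM, with Acta1, Ckm and Myh6 at 0 in each library. Brown fat markers (4 genes) summed to 1.08, 0.956 and 8.55 CPM. The part of other cell types in the mitochondrial values was not tested.

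Subunits of the same complexes that the nucleus encodes did not follow the mitochondrial ones. Summed over complexes I, III, IV and V, the 13 mitochondrial messenger RNAs came to 12.4 times the 71 nuclear ones in PBS (69127 against 5577 CPM). In ZOL the ratio was 0.409 (6807 against 16624 CPM) and in ZOL+Ang2 0.289 (4418 against 15297 CPM). This ratio is taken within a library and does not rest on the scaling.

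By complex, the ratio of mitochondrial to nuclear CPM for complex I was 12.7 in PBS, 0.494 with ZOL and 0.401 with ZOL+Ang2. For complex III it was 19.5, 0.898 and 0.909, and for complex IV 15.5, 0.595 and 0.340. Complex V was set lower throughout, at 0.121, 0.00482 and 0.00494, with mt-Atp6 and mt-Atp8 as its mitochondrial genes. Of these, mt-Atp6 has a nuclear copy over nearly its whole length, and the part of that in the ratio was not tested. In each complex the ratio was highest in PBS, and ZOL and ZOL+Ang2 lay close together for complexes III and V.

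Gene by gene, 47 of the 71 nuclear subunits were at least 2-fold higher in ZOL than in PBS and 1 was lower, Ndufb2 of complex I (59.2 CPM in PBS and 2.17 in ZOL). At least 10 CPM in every library was reached by 24 of 36 subunits of complex I, 9 of 9 of III, 10 of 11 of IV and 14 of 15 of V. The others passed through the libraries where they are high, with Ndufs7 and Ndufv1 at 0 in PBS. The median log2 fold of the 71 was 1.59, or 0.65 above that of all genes. Of all genes 49.2% were higher and 29.4% lower, while the 12 mitochondrial genes were all lower. With median-of-ratios scaling the counts of nuclear subunits were 28 higher and 5 lower, with a median 0.92 above that of all genes. For ZOL+Ang2 against ZOL, 2 of the 71 were higher and 3 lower, beside 16.2% and 24.8% of all genes, with a median log2 fold of -0.16. With median-of-ratios scaling 5 were higher, 1 was lower and the median was 0.03. The shares of all genes past 2-fold were not counted with that scaling.

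**Figure D5:**
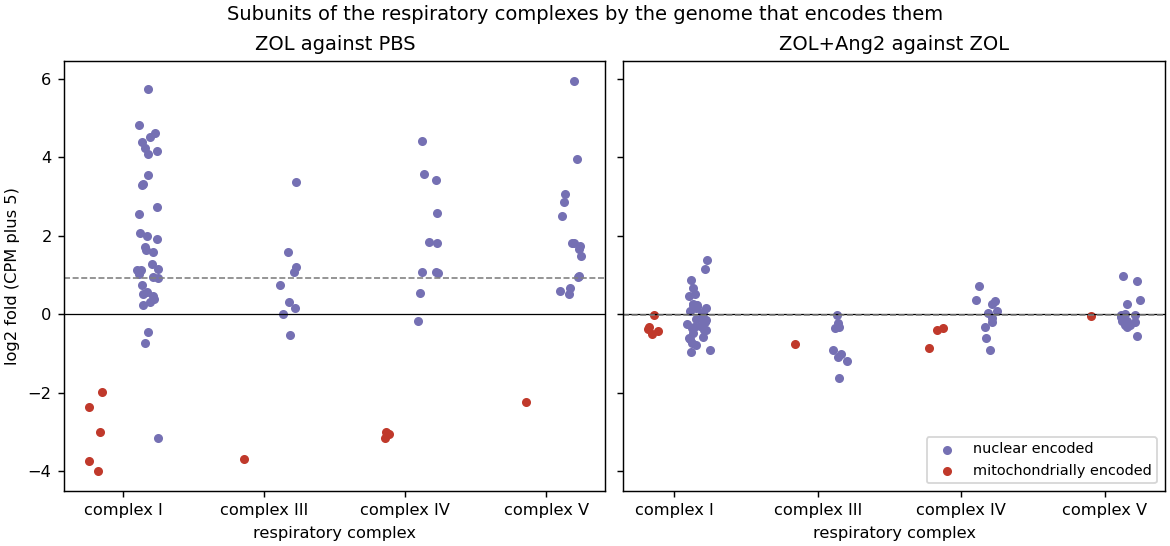
Log2 fold (CPM plus 5) of each subunit of complexes I, III, IV and V, mitochondrially encoded in red and nuclear encoded in violet, for ZOL against PBS (left) and ZOL+Ang2 against ZOL (right). The dashed line is the median of all genes (0.94 and -0.02); on the left the mitochondrial genes lie between -4.00 and -1.98, apart from all nuclear subunits but Ndufb2.

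The nuclear genes that make mitochondrial RNA were sparsely read in PBS. Of 10 transcription genes 5 averaged 10 CPM or more, and 1 of these reached it in every library, so the others passed through the libraries where they are high. Against PBS, 3 of the 5 were at least 2-fold higher in ZOL and 1 was lower, where of all genes 49.2% were higher and 29.4% lower, and nothing is read from that count. The RNA polymerase gene Polrmt stood at 1.08 CPM in PBS, 4.65 with ZOL and 24.4 with ZOL+Ang2. Tfam, which packs the chromosome and starts transcription, had 0, 40.1 and 0.228 CPM, at least 24.8-fold higher in ZOL than the floor of 3 reads in PBS. Polrmt was thus higher and Tfam lower in ZOL+Ang2 than in ZOL, and Tfam in ZOL+Ang2 lay below the 0.342 CPM of 3 reads. A link of either gene with the mitochondrial values was not tested.

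Genes that process, stabilise and degrade mitochondrial RNA numbered 28, of which 20 could be compared. Of these 20, 3 had at least 10 CPM in every library and 8 had 0 reads in ZOL or PBS, so most passed through the library where they are high. Against PBS 17 were higher in ZOL and 2 lower, beside 49.2% and 29.4% of all genes. Their median log2 fold was 2.73, or 4.404 with genes at 0 set to their bound, beside 0.94 for all genes. Because most of the 20 passed through the library where they are high, nothing is read from that count or median. The mitochondrial poly(A) polymerase gene Mtpap had 0, 106 and 0 CPM, at least 65.4-fold higher in ZOL than in PBS and at least 309-fold lower in ZOL+Ang2 than in ZOL. Lrpprc, which stabilises mitochondrial messenger RNAs, had 0, 94.98 and 38.8 CPM, and its partner Slirp had no reads in any library. Lrpprc and Slirp were named after their values were seen. For ZOL+Ang2 against ZOL, 2 were higher and 9 lower, beside 16.2% and 24.8% of all genes, with a median of -0.70, or -0.80 at the bound. With median-of-ratios scaling 2 were higher and 5 lower of 17 compared. The shares of all genes were not counted with that scaling. Nothing is read from these counts either, for the same reason of the filter.

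Genes of mitochondrial DNA replication and nucleotide supply numbered 14, with 7 compared. Of these 7, 2 reached 10 CPM in every library and 4 had 0 reads in ZOL or PBS. In ZOL 5 were higher than in PBS and 2 lower, beside 49.2% and 29.4% of all genes, and nothing is read from that count. The polymerase gene Polg was among the lower ones, with 158 CPM in PBS and 33.1 in ZOL. Of 15 genes of mitochondrial import, folding and mass, 12 had at least 10 CPM in every library. Of the 15, 11 were higher in ZOL than in PBS and 0 lower, beside 49.2% and 29.4% of all genes. Their median log2 fold was 1.56, which is 0.62 above that of all genes. Their sum was 985 CPM in PBS, 2593 with ZOL and 2571 with ZOL+Ang2. Among the biogenesis regulators 2 of 6 could be compared: Nrf1 had 0, 40.5 and 42.2 CPM and Gabpa 0, 53.1 and 18.1 CPM.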

How the data were processed

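RNA was sequenced from 3 pools of dural cells, 1 library per group, with groups taken from the treatment label. Per the labels' protocols, RNA was amplified with a single-cell full-length kit and made into libraries with a TruePrep kit. The deposited values are RPKM per gene, which the authors computed. Per the submitters' processing notes, the tools were fastp, HISAT2 (2.2.1) and featureCounts (2.0.6), with genome build mm10. For the annotation release, the use of strand and the treatment of reads with several positions, nothing is stated (not given in the sources used here).

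Tests had been planned for counts, so reads were recovered first: RPKM times the exon length in GENCODE M21 is a whole multiple of 1 step per library for 96.9%, 96.4% and 96.2% of the values in PBS, ZOL and ZOL+Ang2 (tolerance 0.01), and for all values of the 37 genes. Another 37 of the 54532 genes, none of them mitochondrial, lacked a length there and were not used. CPM used TMM factors of 1.11, 0.946 and 0.953 (written out in numpy, trimming 30% of the ratios and 5% of the levels). Genes averaging 10 CPM or more were compared. A log2 fold has a prior of 5 CPM. A fold of a named gene has none and an exact 95% binomial interval conditional on the reads of both libraries. Where a gene had 0 reads, the fold is set against 3 reads in that library (1.61, 0.191 and 0.342 CPM).

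Copies were found by aligning the members to GENCODE M21 transcripts with blastn. The recovery of reads, the TMM scaling and the 2-fold calls were run on simulated reads, and the search for copies was not. The simulated libraries shared the same profile apart from a small set of changed genes. That run therefore cannot show whether the scaling holds where most genes differ, as between PBS and ZOL. Python 3.11.15, numpy 2.4.6, pandas 2.3.3 and matplotlib 3.10.9 were used.

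All 13 messenger RNAs and 2 ribosomal RNAs are named, with mt-Tp, the transfer RNA that had reads (the rule allowed the 3 highest), the 5 listed nuclear copies, Tfam, Polrmt and members among the 2 highest and 2 lowest of a pathway list. The 37 genes, the lists and the naming rule were chosen with earlier results of these data known. The summed level of the erythroid list is not reported here.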

Additional observations from a re-analysis of the deposited data

How the results depend on the processing

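With 1 library per group no replicate could be left out. No paired analysis was possible because each group has 1 library and the labels carry no replicate numbers. Depth limits PBS most, where mt-Atp8, mt-Nd3 and mt-Nd4l rest on 8, 17 and 23 reads. The shares of all reads moved beyond counting error under each alternative. In PBS, ZOL and ZOL+Ang2 they were 15.5%, 1.54% and 1.23% without the satellite-type models, 12.3%, 1.63% and 1.29% without nuclear ribosomal RNA models, and 12.3%, 1.54% and 1.21% with the nuclear copies added. They were 7.67%, 0.644% and 0.421% for the 13 messenger RNAs, the same without the 2 ribosomal RNAs, and 12.2%, 2.70% and 1.87% as shares of summed RPKM. For ZOL+Ang2 against ZOL, 1 gene (mt-Rnr1) passed 2-fold with median-of-ratios scaling and 1 (mt-Rnr1) in the deposited RPKM, in place of 0. The coefficient of variation over the messenger RNAs was 1.42, 1.28 and 1.17 without mt-Atp8 and mt-Nd4l, 1.52, 1.40 and 1.28 without mt-Nd6, and 1.46 in ZOL thinned to 1675532 reads. After that thinning ribosomal RNA held 57.2% of the mitochondrial reads in ZOL, and transfer RNA 0% in ZOL+Ang2. The cause of these shifts was not tested. Scaling moved the median log2 fold of all genes in ZOL against PBS from 0.94 to 0.65 with library totals, 0.40 with nuclear totals, 0.08 after thinning and -0.17 with median-of-ratios. The folds relative to the median of all genes and the scalings of the lists of nuclear genes were added after the data were seen. In ZOL+Ang2 against ZOL, mt-Nd2 and mt-Atp6, whose intervals hold 1, went above 1 with median-of-ratios, after thinning and in the deposited RPKM. With its copy added, mt-Atp6 was instead 1.16-fold lower (1.05 to 1.29), an interval that takes no read to be listed for both. The median of the nuclear subunits went from -0.16 to 0.03 with median-of-ratios.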
